A study of Mus musculus with 6 samples.

Results

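Matricellular proteins are secreted into the extracellular matrix, where they act on adhesion, growth factor supply and collagen assembly rather than as load-bearing fibers. Here 10 of their genes, the tenascins Tnc and Tnxb, the thrombospondins Thbs1, Thbs2, Thbs3 and Thbs4, periostin (Postn), osteopontin (Spp1), Sparc and its relative Sparcl1, were followed in all 6 RNA-seq libraries of D2 primary oviductal smooth muscle cells. They were chosen by name, and all 10 were found among the 54232 genes of the count table. The 3 WT and 3 Pbrm1 cKO libraries were made from oviducts of mated females aged 8 to 12 weeks on day 2 of pregnancy. Oviduct pieces were digested with trypsin, collagenase and dispase, and the filtered cells were kept in serum-containing medium for 4 h and, after a change of medium, for 2 h more before RNA was taken. The Pbrm1 cKO mice carried floxed alleles of Pbrm1 and a cre inserted at the progesterone receptor gene (PR-IRES-cre), so deletion was limited to cells that had expressed that receptor. The labels call the controls WT, while a legend in the supplement of the study names floxed mice, and nothing in the labels says whether a library was 1 animal or a pool. The p-values measure only the spread between these libraries, which may be technical in part.

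The 10 proteins fall into several families. Tenascins are large glycoproteins: tenascin C loosens cell adhesion in tissue under remodeling, and tenascin X, the product of Tnxb, sits along collagen fibrils. Thrombospondin 1 and thrombospondin 2 are trimers that bind CD36 and CD47, and the former can activate latent TGF-beta, while thrombospondins 3 and 4 form pentamers. Periostin helps cross-link collagen, osteopontin is a secreted ligand of integrins and CD44, and SPARC and SPARC-like 1 are calcium-binding glycoproteins that attach to collagen. In smooth muscle organs such proteins are known to be made by muscle cells and by the fibroblasts between them.

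Start regions were available from RefSeq (GRCm38.p6) for 8 of the 10 genes, and 6 short motifs were searched on both strands in the 250 bases before each start, namely the TATA box TATAAA, the box CCAAT, the GC box GGGCGG, the AP-1 core TGANTCA, the TEAD site GGAATG and the CArG box bound by serum response factor. Across 32851 mouse promoter windows of the same length these were present in 12.4%, 33.8%, 32.7%, 6.75%, 12.6% and 1.47%. The windows shown belong to the genes with the largest fall (Spp1, Tnc) and the largest rise (Tnxb) among the 8, and to Postn, whose window held TATAAA close to its start. Each window is printed 5′ to 3′ along the gene, ends 1 base before the start, contains no exon of the count table, and has motif letters in capitals. Spp1 is read from chr5:104434861-104435110 on the plus strand, Tnc from chr4:64047016-64047265 on the minus strand, Tnxb from chr17:34670285-34670534 on the plus strand and Postn from chr3:54360857-54361106 on the plus strand.
Spp1: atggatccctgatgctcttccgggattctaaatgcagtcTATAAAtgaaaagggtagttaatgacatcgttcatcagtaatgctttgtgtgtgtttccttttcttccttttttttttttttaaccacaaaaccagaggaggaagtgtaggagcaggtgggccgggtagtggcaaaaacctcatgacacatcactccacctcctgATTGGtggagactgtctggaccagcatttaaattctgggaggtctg
Tnc: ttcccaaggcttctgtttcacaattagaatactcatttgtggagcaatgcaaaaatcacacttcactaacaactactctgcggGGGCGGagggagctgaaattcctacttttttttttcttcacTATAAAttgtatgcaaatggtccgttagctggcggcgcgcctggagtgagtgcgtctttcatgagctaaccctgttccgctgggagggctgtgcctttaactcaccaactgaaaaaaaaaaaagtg
Tnxb: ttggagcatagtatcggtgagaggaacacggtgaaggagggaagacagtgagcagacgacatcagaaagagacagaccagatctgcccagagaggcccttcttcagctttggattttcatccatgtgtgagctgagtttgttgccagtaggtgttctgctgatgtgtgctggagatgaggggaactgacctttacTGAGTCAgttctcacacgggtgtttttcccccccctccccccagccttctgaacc
Postn: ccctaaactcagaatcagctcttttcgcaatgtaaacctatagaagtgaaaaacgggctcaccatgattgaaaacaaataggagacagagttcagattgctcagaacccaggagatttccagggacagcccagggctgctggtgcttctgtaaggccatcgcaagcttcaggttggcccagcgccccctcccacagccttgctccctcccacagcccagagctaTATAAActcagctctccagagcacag
In these windows TATAAA lay from -26 to -21 in Postn, from -126 to -121 in Tnc and from -211 to -206 in Spp1, counted from the start. Spp1 also held CCAAT on the opposite strand from -46 to -42, Tnc held GGGCGG from -167 to -162, and Tnxb held TGANTCA from -55 to -49. Tnc, Spp1 and Postn each had another start, whose window is not shown. From the other Tnc start, at 64046936, the same TATAAA lay from -205 to -200 and GGGCGG from -246 to -241. The other windows of Spp1 and Postn held none of the 6 motifs. No CArG box was found in the windows of the 8 genes. A match of letters describes the sequence and says nothing of a factor's binding.

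Library totals lay between 15390818 and 18947947 counts. Levels are given as CPM, read counts scaled to a common library total with trimmed-mean factors. The targeted gene, Pbrm1, ranged from 170 to 183 CPM in the WT libraries and from 42.7 to 50.7 CPM in the Pbrm1 cKO libraries (edgeR log2 fold change -1.94 with an SE of 0.064, adjusted p = 9.13e-11). All 10 smooth muscle markers were detected, as were marker genes of fibroblasts, leukocytes, endothelium, pericytes, epithelium and mesothelium, so the libraries held RNA of several cell types. In such bulk samples fewer cells of a type and less RNA per cell cannot be told apart. The cKO library of replicate 2 was the cKO library nearest to the WT mean for 7 of the 10 matricellular genes, and it is followed through the results.

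All 10 genes passed the filter on low counts, and 8 differed between Pbrm1 cKO and WT in the edgeR quasi-likelihood test (Benjamini-Hochberg adjusted p under 0.05 over the 15376 genes tested). The same test called 43.7% of all tested genes. Tnxb, Thbs3, Postn, Sparc and Sparcl1 rose, against 21.9% of tested genes that rose, and Tnc, Thbs1 and Spp1 fell, against 21.8% that fell. Thbs2 and Thbs4 did not pass the test. The WT and cKO ranges did not overlap for 7 genes (53.5% of tested genes), all of them called, while the ranges of Postn overlapped. With a bound of 1 on the absolute log2 fold change as well, Spp1 was the 1 gene called (6.49% of tested genes). The median log2 fold change of the 10 genes was 0.14, beside 0.0016 over all tested genes, and the median absolute value was 0.34 beside 0.22. When the WT library of replicate 2 or the cKO library of replicate 1 was left out, 6 of the 10 remained called, since Thbs3 and Postn no longer passed. Without the cKO library of replicate 2, 9 were called, Thbs2 among them.

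**Figure D1:**
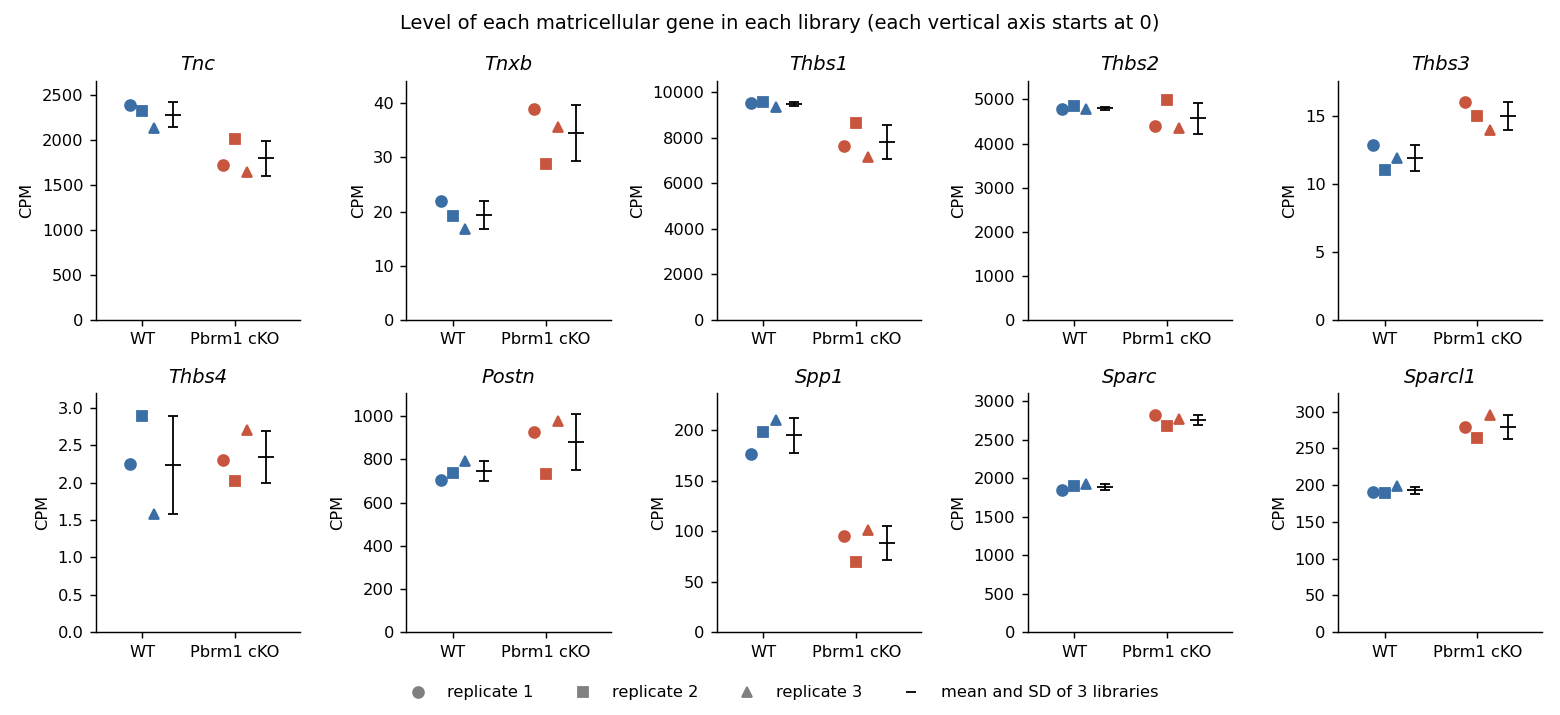
Level of each of the 10 matricellular genes in each library, in CPM on linear axes that start at 0, with WT in blue, Pbrm1 cKO in red, 1 symbol for each replicate and the mean and SD of 3 libraries in black. Spp1 was at 176 to 210 CPM in WT and 69.3 to 101 CPM in cKO libraries, and the square of cKO replicate 2 lies nearer to WT than the other cKO symbols for Tnc, Tnxb, Thbs1, Thbs2, Postn, Sparc and Sparcl1.

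The tenascins moved in opposite directions. Tnc (ENSMUSG00000028364.15, minus strand of GRCm38 chromosome 4, 63959785 to 64047015, 26 exons in its longest coding transcript) was at 2394, 2324 and 2130 CPM in WT and at 1725, 2017 and 1648 CPM in cKO replicates 1, 2 and 3. Every cKO library lay below every WT library, with cKO replicate 2 the nearest to them. Mean Tnc fell from 2282 ± 137 to 1796 ± 195 CPM, or to 78.7% of WT (± SD of 3 libraries, edgeR log2 fold change -0.35 with an SE of 0.069, adjusted p = 0.00113). Tnxb (ENSMUSG00000033327.16, plus strand of chromosome 17, 34670535 to 34719815, 41 exons) was far lower per exon length (5.01 against 930 TPM in WT, the scale explained with the order of levels), and its libraries held 21.9, 19.2 and 16.7 CPM in WT and 39.0, 28.8 and 35.6 CPM in cKO. Here every cKO library lay above every WT library, and cKO replicate 2 was again the nearest. The mean rose from 19.3 ± 2.59 to 34.5 ± 5.21 CPM (± SD of 3 libraries), a log2 fold change of 0.84 (SE 0.11, edgeR adjusted p = 5.25e-05) that was exceeded in absolute size by 8.92% of tested genes. Without cKO replicate 2 the edgeR log2 fold change was -0.43 for Tnc and 0.96 for Tnxb. Of the 50-base stretches of the longest Tnxb transcript, 6.23% occur also in Tnxa, a partial copy of the gene, and reads that map to both genes were left out by the counting. Tnxa itself had at most 2 counts in any library. Another 2.26% of the exon bases of Tnc lie opposite the gene 8030451A03Rik, which held 2 to 25 counts and was counted by strand. At these few counts that gene was lower in cKO (edgeR log2 fold change -2.20, adjusted p = 0.00183).

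Within each library the balance of the tenascins shifted. The log2 ratio of Tnc to Tnxb per kilobase of exon was 7.42, 7.57 and 7.64 in WT and 6.12, 6.78 and 6.18 in cKO. All 3 cKO ratios were below all 3 WT ratios, with a difference of -1.18 between the means (two-sided exact permutation test, p = 0.1, the smallest value that 20 arrangements of the libraries allow). Tnc transcripts thus outnumbered Tnxb transcripts per kilobase by 187-fold in WT and 82.1-fold in cKO.

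Thbs1 (ENSMUSG00000040152.8, plus strand of chromosome 2, 118111876 to 118127133, 22 exons) had the highest level of the 10 genes per exon length. The WT libraries held 9536, 9544 and 9364 CPM and the cKO libraries held 7615, 8623 and 7167 CPM. The WT libraries lay close together, and all cKO libraries were below them, cKO replicate 2 by the least. Its mean fell from 9481 ± 102 to 7802 ± 746 CPM, or to 82.3% of WT (± SD of 3 libraries, edgeR log2 fold change -0.28 with an SE of 0.060, adjusted p = 0.00184). Without cKO replicate 2 the edgeR log2 fold change of Thbs1 was -0.35. The gene Gm29233 lies opposite 3.4% of the exon bases of Thbs1, held 3 to 29 counts and was counted by strand. In WT libraries Thbs1 held the rank of 4 among all genes by count, and it took 0.942% of all counts in WT and 0.783% in cKO on average. Thbs1 is known to be induced by serum, and the cells were in serum before lysis. Of the 12 genes listed as responding to tissue dissociation, 8 rose and 1 fell in edgeR, against 21.9% and 21.8% of all tested genes. Their summed levels were 656 to 744 CPM in WT and 869 to 977 CPM in cKO. Their part in the result for Thbs1 was not tested.

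Thbs2 (ENSMUSG00000023885.9, minus strand of chromosome 17, 14665500 to 14694235, 22 exons), the other trimer, did not pass the test. Its levels were 4780, 4842 and 4787 CPM in WT and 4402, 4978 and 4343 CPM in cKO. The cKO library of replicate 2 lay above all WT libraries and the other cKO libraries lay below them. The log2 fold change was -0.07 (95% interval -0.19 to 0.04; edgeR adjusted p = 0.314), and it became -0.13 with an edgeR adjusted p of 0.00743 when cKO replicate 2 was left out, so the call for Thbs2 rested on that library. The log2 ratio of Thbs1 to Thbs2 per kilobase was 1.20, 1.18 and 1.17 in WT and 0.996, 0.998 and 0.928 in cKO. In this ratio cKO replicate 2 stood with the other cKO libraries, and the groups did not overlap (difference -0.21, two-sided exact permutation test, p = 0.1, the smallest possible).

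The pentameric thrombospondins had few counts. Thbs3 (ENSMUSG00000028047.11, plus strand of chromosome 3, 89215180 to 89226837, 23 exons) had 203 to 285 counts, which gave 12.88, 11.01 and 11.88 CPM in WT and 16.03, 15.01 and 13.96 CPM in cKO. All cKO libraries were above all WT libraries by a small margin (log2 fold change 0.33, SE 0.095, edgeR adjusted p = 0.0111). The call was lost without WT replicate 2 (0.28, edgeR adjusted p = 0.0598) and without cKO replicate 1 (0.29, edgeR adjusted p = 0.0556). Mtx1 lies opposite 6.59% of the exon bases of Thbs3, was counted separately by strand, and had an edgeR log2 fold change of -0.16 (adjusted p = 0.0785). Thbs4 (ENSMUSG00000021702.7, minus strand of chromosome 13, 92751590 to 92794818, 22 exons), a thrombospondin of muscle and tendon, had 27 to 54 counts per library. Its levels of 2.25, 2.89 and 1.58 CPM in WT and 2.31, 2.02 and 2.70 CPM in cKO overlapped. The log2 fold change of 0.05 had a 95% interval of -0.45 to 0.55 (edgeR adjusted p = 0.893), so these libraries did not tell apart changes within that interval.

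Postn (ENSMUSG00000027750.16, plus strand of chromosome 3, 54361109 to 54391037, 22 exons) encodes a matrix protein with fasciclin domains. The WT libraries held 704, 736 and 794 CPM of it, and the cKO libraries 924, 734 and 980 CPM. The cKO libraries of replicates 1 and 3 lay above WT, whereas cKO replicate 2 lay within the WT range. The log2 fold change of 0.24 (SE 0.084) had an edgeR adjusted p of 0.0327. This call was lost in DESeq2 (0.24, adjusted p = 0.156) and without WT replicate 1 or 2 or cKO replicate 1 or 3, where the edgeR log2 fold change lay between 0.15 and 0.23, with 0.15 without cKO replicate 3. Without cKO replicate 2 it was 0.36 (edgeR adjusted p = 1.13e-05).

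Spp1 (ENSMUSG00000029304.14, plus strand of chromosome 5, 104435118 to 104441050, 6 exons) had the largest change of the 10 genes. The levels were 176, 198 and 210 CPM in WT and 95.6, 69.3 and 101 CPM in cKO. No cKO library came near a WT library, and in contrast to the other genes cKO replicate 2 lay the farthest from WT. The mean fell from 195 ± 17.0 to 88.6 ± 17.0 CPM, or to 45.5% of WT (± SD of 3 libraries, edgeR log2 fold change -1.14 with an SE of 0.11, adjusted p = 1.80e-06), and 4.90% of tested genes had a larger absolute change. Without cKO replicate 2 the log2 fold change was -0.98. Reads over 18.8% of the exon bases of Spp1 were left out by the counting, since these bases are shared with Gm42793 on the same strand, a gene with 1 to 5 counts per library. Osteopontin is also known as a product of macrophages. Of 12 macrophage and leukocyte markers 11 rose and none fell in edgeR, against 21.9% and 21.8% of all tested genes. Their summed level was 777 to 830 CPM in WT and 1214 to 1280 CPM in cKO, and no marker of the list was at 0. Their part in the result for Spp1 was not tested.

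Sparc and Sparcl1 rose by nearly the same factor. Sparc (ENSMUSG00000018593.13, minus strand of chromosome 11, 55394500 to 55423183, 10 exons), a collagen-binding protein that assists collagen deposition, reached 1846, 1894 and 1930 CPM in the WT libraries and 2819, 2684 and 2772 CPM in the cKO libraries. The spread within each group was small beside the gap between them. Its mean rose from 1890 ± 42.4 to 2758 ± 68.3 CPM, 1.46-fold (± SD of 3 libraries, edgeR log2 fold change 0.55 with an SE of 0.043, adjusted p = 4.13e-07). Sparcl1 (ENSMUSG00000029309.7, minus strand of chromosome 5, 104079111 to 104113733, 11 exons) reached 191, 189 and 198 CPM in WT against 279, 264 and 296 CPM in cKO. Again no cKO library reached down to WT. The mean rose from 193 ± 4.94 to 279 ± 16.0 CPM, 1.45-fold (± SD of 3 libraries, edgeR log2 fold change 0.53 with an SE of 0.049, adjusted p = 1.67e-06). The log2 ratio of Sparc to Sparcl1 per kilobase lay between 2.91 and 2.96 in WT and between 2.86 and 2.98 in cKO, a difference of 0.01 between the means (two-sided exact permutation test, p = 0.8). Neither gene shares exon bases or 50-base stretches with another annotated gene.

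**Figure D2:**
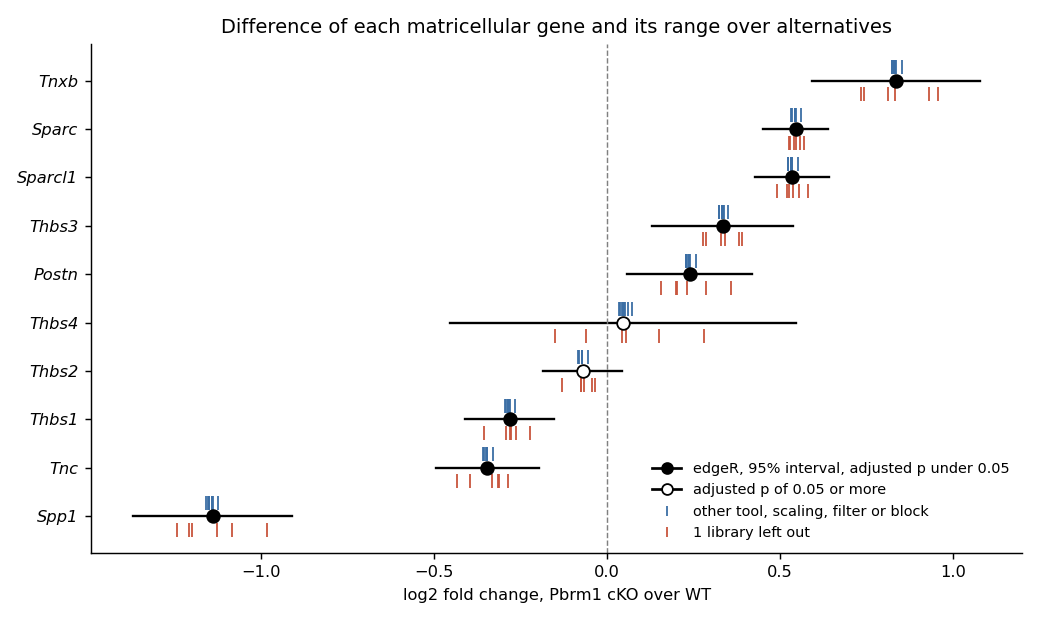
Log2 fold change of each of the 10 genes between Pbrm1 cKO and WT, with the edgeR estimate and its 95% interval in black (filled where the adjusted p was under 0.05), estimates from another tool, scaling, filter or block as blue ticks and estimates with 1 library left out as red ticks. The ticks of Spp1 stay between -1.24 and -0.98 and those of Sparc between 0.53 and 0.57, whereas those of Thbs4 lie on both sides of 0.

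To compare genes with each other, counts were divided by the exon length of the table and scaled to a common sum (TPM). In WT the order of TPM levels was Thbs1 (4944 ± 50.4), Thbs2 (2172 ± 17.7), Sparc (1580 ± 37.6), Tnc (930 ± 54.8), Spp1 (374 ± 33.3), Postn (271 ± 16.8), Sparcl1 (208 ± 5.43), Thbs3 (7.83 ± 0.60), Tnxb (5.01 ± 0.66) and Thbs4 (2.15 ± 0.63), each ± SD of 3 libraries. The ranges of neighbors in this order did not overlap in WT, and Thbs3, Tnxb and Thbs4 lay far below the other genes. In cKO the order of TPM levels was Thbs1 (4001), Sparc (2268), Thbs2 (2034), Tnc (720), Postn (315), Sparcl1 (296), Spp1 (168), Thbs3 (9.69), Tnxb (8.80) and Thbs4 (2.22). The ranges of Sparc and Thbs2, of Postn and Sparcl1, and of Thbs3 and Tnxb overlapped there, so the order within these pairs was not resolved. Spp1 fell from the fifth to the seventh place, and its TPM rank among the 15376 tested genes went from 269 to 818, while Sparc went from 40 to 25. With the longest transcript of each gene as its length, Sparc stood above Thbs2 and Postn above Spp1 already in WT, so that these places depend on the length used.

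**Figure D3:**
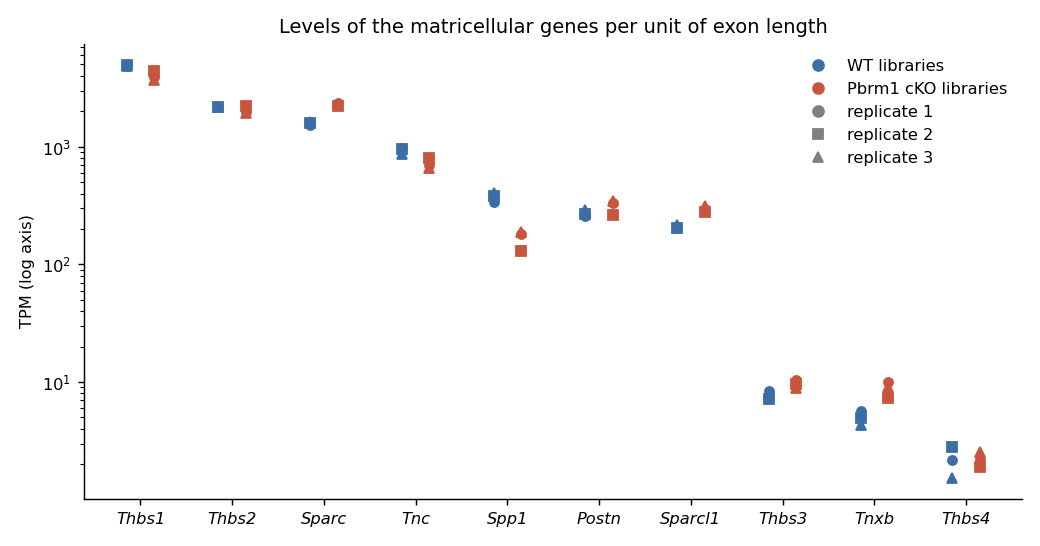
TPM level of the 10 genes in each library on a log axis, ordered by the WT mean, with WT in blue, Pbrm1 cKO in red and 1 symbol for each replicate. Thbs1 is highest at 4944 TPM in WT and 4001 TPM in cKO on average, and Thbs3, Tnxb and Thbs4 form a low group.

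Thbs1 and Thbs2 dominated the sum. In WT they made up 67.4% to 68.1% of the summed TPM of the 10 genes, and in cKO 59.5% to 64.2%. The 10 genes together took 1.93% to 1.96% of all counts in WT libraries and 1.75% to 1.93% in cKO libraries. In both measures the cKO library with the highest value was that of replicate 2.

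The other genes of the system were taken from lists of related matricellular genes, receptors, latent TGF-beta genes, proteases and matrix partners. The counts of all these lists stand beside 21.9% of all tested genes that rose and 21.8% that fell. Of 29 other matricellular genes 20 passed the filter, 9 rose and 4 fell in edgeR, and their median log2 fold change was 0.13. The largest changes were those of Ccn3 (1.77), Ccn5 (-1.73), Hmcn1 (1.27), Tgfbi (1.07), Ccn4 (-1.02) and Cilp (0.48), given as edgeR log2 fold changes. Ccn3, Ccn4 and Ccn5 belong to the cysteine-rich CCN family, in which members differed in direction, and Tgfbi encodes the closest relative of periostin. Tgfbi rose from 85.6 ± 7.09 to 180 ± 19.6 CPM (± SD of 3 libraries, edgeR adjusted p = 1.55e-07), a log2 fold change of 1.07 beside 0.24 for Postn. Ccn3 and Ccn5 were low, at 0.708 ± 0.213 and 7.93 ± 1.66 CPM in WT and 2.41 ± 0.34 and 2.42 ± 0.45 CPM in cKO.

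Among 25 receptor genes, all of which passed the filter, 12 rose and 8 fell in edgeR, with a median log2 fold change of 0.09. Cd47, a receptor of thrombospondins, rose from 51.3 ± 1.84 to 82.2 ± 6.10 CPM (± SD of 3 libraries, edgeR log2 fold change 0.68, adjusted p = 1.26e-06). The integrin subunit Itga8, which binds tenascin C and osteopontin, rose from 5.60 ± 0.89 to 11.2 ± 1.27 CPM (log2 fold change 1.00, edgeR adjusted p = 4.45e-05). Itgb8 (0.72) and Tlr4 (0.83) also rose on the log2 scale. Lrp8 (-0.69) and Ptprz1 (-1.83) fell, the latter, a phosphatase that binds tenascins, from only 1.98 ± 0.25 CPM. Cd44, the receptor of osteopontin outside the integrins, was looked up after its values were known. It fell from 857 ± 13.3 to 553 ± 51.9 CPM (edgeR log2 fold change -0.63, adjusted p = 1.67e-06). Spp1 and Cd44 were both lower in cKO, while Itga8, which also binds osteopontin, was higher. Other listed integrin subunits went both ways in edgeR. Itgav (0.14), Itgb5 (0.28) and Itga9 (0.36) rose on the log2 scale, Itgb1 (-0.18), Itgb3 (-0.24) and Itga5 (-0.22) fell, and Itga3 and Itga4 were not called. A relation between these changes was not tested.

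The next list held 9 genes, for TGF-beta ligands, the family named latent TGF-beta binding proteins (Ltbp) and membrane anchors. Of these 6 rose and 1 fell in edgeR, with a median log2 fold change of 0.25. Tgfb1, the ligand, fell from 36.6 ± 4.42 to 27.5 ± 4.63 CPM (± SD of 3 libraries, edgeR log2 fold change -0.40, adjusted p = 0.00874), and this call was lost without WT replicate 1 (-0.31, edgeR adjusted p = 0.0525). Tgfb3 (0.45), Ltbp1 (0.25), Ltbp2 (0.50) and the membrane anchors Lrrc32 (0.59) and Lrrc33 (0.80) rose on the log2 scale. Ltbp3 (0.13) and Ltbp4 (-0.09) were not called. Whether the product of each Ltbp gene holds TGF-beta in these cells was not tested. Ltbp2 rose from 1127 ± 79.3 to 1589 ± 121 CPM.

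Of 15 protease genes 13 passed the filter, 6 rose and 5 fell in edgeR, and the median log2 fold change was 0.38. The extremes were Mmp3, stromelysin 1, which rose from 20.8 ± 2.46 to 76.0 ± 15.6 CPM (± SD of 3 libraries, edgeR log2 fold change 1.86, adjusted p = 1.55e-07), and Tll1, a tolloid-like protease, which fell from 36.9 ± 1.14 to 8.81 ± 1.79 CPM (log2 fold change -2.05, edgeR adjusted p = 8.67e-09). Adamts4 (0.94), Adamts5 (0.61), the plasminogen activator Plat (0.57) and the gelatinase Mmp2 (0.46) rose on the log2 scale.

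All 14 matrix partners passed the filter, 8 rose and 3 fell in edgeR, and the median log2 fold change was 0.35. Col14a1 (1.47), Dcn (0.92), Col3a1 (0.86), Col6a1 (0.62), Col6a2 (0.57) and Col1a2 (0.53) had the largest changes, all of them higher in cKO on the log2 scale. Lox (-0.51) followed closely in size but fell, as did Fn1 (-0.33) and Col6a3 (-0.17). Col1a1 (0.08), Col5a2 (-0.05) and Col12a1 (0.03) were not called. Dcn encodes decorin, a proteoglycan on collagen fibrils, and Col3a1 and Col1a2 encode fibrillar collagen chains. Col3a1 rose from 1417 ± 6.13 to 2574 ± 332 CPM (± SD of 3 libraries, edgeR adjusted p = 7.69e-07).

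**Figure D4:**
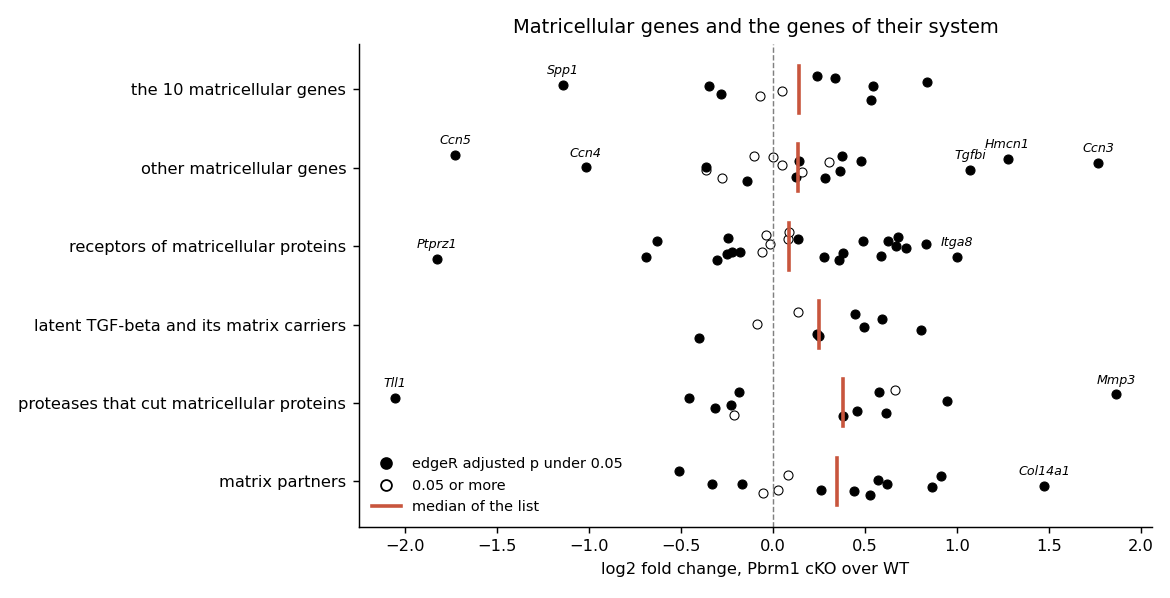
Log2 fold changes between Pbrm1 cKO and WT for the 10 matricellular genes and for 5 lists of related genes, 1 point for each tested gene (filled where the edgeR adjusted p was under 0.05), with the median of each list as a red bar and names for genes beyond 1 in either direction. The medians lie between 0.09 for receptors and 0.38 for proteases, and every list holds genes on both sides of 0.

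Marker lists of cell types differed between the groups together with these genes. Their counts, here and below, also stand beside 21.9% of all tested genes that rose and 21.8% that fell. Of 12 fibroblast markers 10 passed the filter, 8 rose and 1 fell in edgeR, and the summed level was 1462 to 1482 CPM in WT and 2369 to 2551 CPM in cKO, with no marker at 0 in every library. Pdgfra, a defining marker of fibroblasts, rose from 747 ± 12.3 to 1319 ± 39.1 CPM (± SD of 3 libraries, edgeR log2 fold change 0.82, adjusted p = 9.62e-09). Pdgfra and Gsn (417 ± 12.9 CPM in WT) had the highest levels in the sum. Dpt of the same list fell from 53.5 ± 3.63 to 34.0 ± 4.90 CPM (log2 fold change -0.65, edgeR adjusted p = 5.56e-05). Pi16 was not called, and Clec3b and Ly6c1 did not pass the filter. Fibroblasts are known to express most of the 10 genes, of which Tnxb, Postn, Sparc and Sparcl1 rose as well, Tnc and Thbs1 fell, and Thbs2 had a log2 fold change of -0.07. The part of the fibroblast markers in these results was not tested. Smooth muscle markers were mixed: of 10 genes 5 rose and 1 fell. The gene that fell was Smtn (log2 fold change -0.29, edgeR adjusted p = 0.00169), and Cnn1, Myocd, Synpo2 and Actg2 were not called. The summed level, in which Tagln and Acta2 were highest, was 3498 to 3570 CPM in WT and 4272 to 4769 CPM in cKO. Des, the muscle intermediate filament desmin, rose from 239 ± 5.06 to 554 ± 47.0 CPM (log2 fold change 1.21, edgeR adjusted p = 3.54e-09).

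Pericyte markers were at 440 to 474 CPM in WT and 532 to 632 CPM in cKO in sum, with 5 of 6 tested genes higher and 1 lower in edgeR. Pdgfrb, which rose from 350 ± 14.3 to 469 ± 44.8 CPM (± SD of 3 libraries), had by far the highest level in the sum. Cspg4, the next in level, was the gene that fell, from 91.3 ± 9.84 to 55.9 ± 15.5 CPM (edgeR log2 fold change -0.70, adjusted p = 0.000962). Rgs5, Kcnj8, Abcc9 and Notch3 rose from low WT means of 4.06 to 6.16 CPM, and Higd1b did not pass the filter. Sparcl1 is known from pericytes and endothelium. Endothelial markers were lower in sum, at 368 to 388 CPM in WT and 308 to 314 CPM in cKO. But of 10 genes only Kdr fell, from 182 ± 6.61 to 99.4 ± 11.3 CPM (± SD of 3 libraries, log2 fold change -0.87), while Vwf (1.71) and Esam (0.28) rose. The part of these markers in the rise of Sparcl1 was not tested.

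Platelets carry thrombospondin 1. Of 5 platelet and megakaryocyte markers, Pf4, Ppbp and Itga2b passed the filter and rose, the summed level was 96.1 to 104 CPM in WT and 212 to 275 CPM in cKO, and the platelet receptor genes Gp1ba and Gp9 had no count in any library, which allows up to 0.159 to 0.193 CPM for a limit of 3 counts. This limit covers counting error only. The rise of Itga2b was not called without WT replicate 2 (0.63, edgeR adjusted p = 0.0627). Pf4 rose from 81.2 ± 4.16 to 213 ± 26.8 CPM (± SD of 3 libraries). The part of these markers in the result for Thbs1 was not tested.

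Markers of the lining cells were also present. Of 10 epithelial markers 7 rose and none fell in edgeR (median log2 fold change 0.23), with summed levels of 958 to 1036 CPM in WT and 1209 to 1349 CPM in cKO, and 4 were called when WT replicate 1 was left out. Of 7 mesothelial markers 1 rose and 4 fell (median -0.37), while their summed level was 331 to 340 CPM in WT and 352 to 384 CPM in cKO. The riser, Krt19, is shared with the epithelial list. Of 4 tested nerve and Schwann cell markers 1 rose and 2 fell (median -0.18), and their summed level was 120 to 124 CPM in WT and 82.8 to 88.3 CPM in cKO. Osteopontin is also known from epithelial cells, and the part of their markers in the result for Spp1 was not tested.

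**Figure D5:**
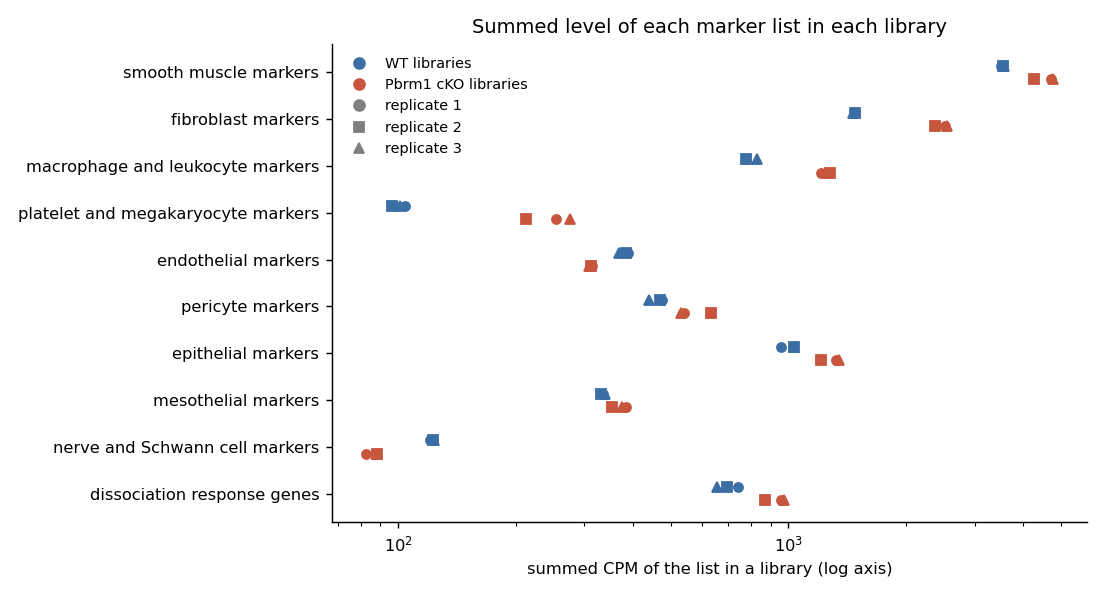
Summed CPM of each marker list in each library on a log axis, with WT in blue, Pbrm1 cKO in red and 1 symbol for each replicate. The WT and cKO sums are separate for every list shown, higher in cKO for most and lower for the endothelial list (368 to 388 against 308 to 314 CPM) and the nerve list (120 to 124 against 82.8 to 88.3 CPM). The mesothelial sum includes Krt19, which rose, while 4 of the 7 mesothelial markers fell. In the endothelial list only Kdr fell.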

How the data were processed

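RNA-seq was performed on 3 WT and 3 Pbrm1 cKO libraries of D2 primary oviductal muscle cells, grouped by the labels. The authors deposited whole-number read counts per gene, without normalization, together with gene coordinates and exon lengths. Per the file headers, featureCounts 1.6.4 assigned reads to the exons of GENCODE M18 genes in reverse-stranded mode with other options at default, so that multi-mapping reads and reads over exons of more than 1 gene on a strand were left out. The submitters' processing notes name cutadapt, HISAT2 and GRCm38.p5, and the RNA-seq methods of the study state trimming with cutadapt and alignment with HISAT2. Reads without molecular identifiers were counted, so floors cover counting error only. The edgeR intervals also include the spread between libraries, which may be technical in part.

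Symbols were matched for 54079 of 54232 gene IDs (99.7%) with GENCODE M21 on the same build. All columns were assigned to a sample. Differences were tested with edgeR 4.0.16 (R 4.3.3; filterByExpr, trimmed mean of M values, quasi-likelihood F-test, two-sided, Benjamini-Hochberg adjustment over 15376 genes, threshold 0.05), checked on simulated counts. The common biological coefficient of variation was 5.32%. CPM used effective library sizes, and TPM used the exon lengths of the table. The SE was derived from the F statistic. A floor of 3 counts corresponded to 0.159 to 0.193 CPM. The mean chi-square per gene between replicates of a group was 1.31 to 1.60, above sampling noise. This excess cannot tell separate animals from separate preparations of the same cells. Each library was counted as 1 replicate. Library numbers did not pair the groups.

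The members and the 15 comparison lists were chosen with earlier results of these data known. Named genes were Pbrm1, the 10 members and, from each list, at most 6 genes with the largest absolute log2 fold change among those called. Cd44 and the other list genes named outside this rule were added after their values were seen. Alternatives were DESeq2 1.42.0, limma-voom 3.58.1, 3 other scalings, other filters (none, or 10 counts in every library), stricter thresholds (0.01, or a log2 fold change beyond 1), the replicate block and leaving out each library. Promoter windows came from RefSeq (GRCm38.p6), and 50-base stretches were compared with all GENCODE M21 transcripts.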

Additional observations from a re-analysis of the deposited data

How the results depend on the processing

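Tnc, Tnxb, Thbs1, Spp1, Sparc, Sparcl1 and Pbrm1 kept their direction and their call under all 14 alternatives. Postn was not called in DESeq2 (0.24, adjusted p = 0.156). With 1 library left out, edgeR gave log2 fold changes of 0.15 to 0.36 for Postn, 0.28 to 0.39 for Thbs3, -0.13 to -0.034 for Thbs2 and -0.15 to 0.28 for Thbs4. Thbs3 was lost without WT replicate 2 (0.28) or cKO replicate 1 (0.29), Thbs2 was gained without cKO replicate 2 (-0.13), and Thbs4 changed sign without WT replicate 3 (-0.15) or cKO replicate 3 (-0.06). Of the 10 members, 6 to 9 were then called and 3 to 5 rose; 7 were called in DESeq2. With the bound on fold change, 1 member and 998 genes in all were called, against 6723 without it; leaving out 1 library gave 5532 to 7054 and DESeq2 gave 5535. Of 10 members, 6 kept their place in the WT order with the longest transcript as length, 6 with the longest protein-coding transcript (an alternative chosen after seeing the data) and 4 by CPM. The difference in the log2 ratio of Sparc to Sparcl1 lay between -0.011 and 0.049 with 1 library left out and changed sign without cKO replicate 1 (-0.0047) or 2 (-0.011). The cause of these changes was not tested.

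WT and cKO libraries of the same number had correlations of -0.02, 0.04 and 0.09, so the number did not pair them, and 2 of 6 libraries correlated best with their own number. With the replicate block edgeR called 6908 genes, of which 6617 were also called without the block, and 8 members. Among the 79 other genes named by the size of their change, 10 of 1105 values under alternatives lost their call, in 4 genes, and none changed direction. The other scalings moved the median of all genes by at most 0.016 on the log2 scale. Thbs4 had 27 to 54 counts per library and a coefficient of variation of 29.2% in WT and 14.7% in cKO.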
